A study of Mus musculus with 2 samples.

Results

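Nanog peaks far from protein-coding genes were taken from a list of sites bound by Nanog in mouse embryonic stem cells (ESCs). A peak was counted as far where its middle base lay in no protein-coding gene, over 100 kb from the transcription start site (TSS) of every protein-coding gene and over 5 kb from the TSS of any annotated gene. Of the 8735 distinct peaks on chromosomes 1 to 19 and X, 1219 met this rule (13.96%, 95% interval 13.2 to 14.7%). The study immunoprecipitated Nanog from Bruce-4 cells, an ESC line grown with serum and LIF and fixed with formaldehyde, with the D1G10 rabbit monoclonal antibody and sequenced the DNA (ChIP-seq), beside 1 input sample of chromatin without immunoprecipitation. Only the peak list of the immunoprecipitated sample was analysed here, it has no replicate, and it gives positions on mm10 without any measure of strength. The depth behind a peak is therefore unknown. No test between samples was possible, so shares and ratios are given with 95% intervals, which reflect counting error alone and assume that the peaks are independent of each other.

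Nanog is a homeodomain transcription factor that helps to hold ESCs in the pluripotent state, together with Oct4 and Sox2. Much of its binding lies at enhancers, which can act on a promoter over long distances. Gene deserts, long stretches without protein-coding genes, often flank genes that control development and can hold enhancers for them. A desert here was the stretch between neighbouring protein-coding genes, and it was named by the genes at its flanks.

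The sequences below show what far peaks carried that the distance rule did not use. The Oct4-Sox2 composite, to which Oct4 and Sox2 bind side by side, was found with at most 2 mismatches in 56 far peaks, and in 16 of them with 1 mismatch. No far peak held it without mismatch. The 5 copies with 1 mismatch in deserts with a developmental regulator at a flank are printed in the orientation of the composite, on GRCm38 (mm10), with the matching bases in capitals and the mismatch in lower case.
Lyplal1 to Tgfb2 desert, plus strand, chr1:186510730-186510744: CATTtTCATGCAAAT
Veph1 to Shox2 desert, minus strand, chr3:66687308-66687322: CATTGTTATGCAgAT
Gdf6 to 2610301B20Rik desert, minus strand, chr4:10399859-10399873: CTTTGaCATGCAAAT
Tshz3 to Zfp536 desert, minus strand, chr7:37192708-37192722: gATTGTTATGCAAAT
Rfx3 to Glis3 desert, plus strand, chr19:28183012-28183026: CTTTGTTgTGCAAAT
Tgfb2 and Gdf6 are secreted growth factors of the TGF-beta family, and Shox2, Tshz3, Rfx3 and Glis3 are transcription factors of development. The peaks lay 171.8 to 494.6 kb from the nearest protein-coding TSS. That TSS was of Rsrc1 for the peak in the Shox2 desert and of 2610301B20Rik for that in the Gdf6 desert. Of all far peaks, 22.0% lay in a desert with a developmental regulator at a flank.

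Longer stretches of the plus strand are shown for peaks named below, with copies of the Oct4-Sox2 composite, Oct, Sox, Nanog, Klf, Esrrb and Stat motifs in capitals. Peaks wider than 300 bases are cut to their middle 300. The peak in the desert of Tgfb2 held the composite and a second Oct octamer.
Lyplal1 to Tgfb2, chr1:186510563-186510857: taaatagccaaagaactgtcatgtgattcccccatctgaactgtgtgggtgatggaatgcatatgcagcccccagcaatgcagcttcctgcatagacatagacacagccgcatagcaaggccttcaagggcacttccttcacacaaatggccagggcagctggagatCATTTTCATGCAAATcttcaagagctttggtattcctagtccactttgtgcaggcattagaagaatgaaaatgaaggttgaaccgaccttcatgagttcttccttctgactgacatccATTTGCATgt
The peak downstream of Tshz3, 494.6 kb from its TSS, held the composite and a Klf motif.
Tshz3 to Zfp536, chr7:37192582-37192818: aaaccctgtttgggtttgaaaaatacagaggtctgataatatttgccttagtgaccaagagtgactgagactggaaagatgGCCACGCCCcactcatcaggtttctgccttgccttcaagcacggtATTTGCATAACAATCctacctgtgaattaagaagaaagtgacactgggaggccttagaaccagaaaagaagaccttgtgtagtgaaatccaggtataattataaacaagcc
The middle peak of the group downstream of Sox2 held an Esrrb motif and a Nanog core motif.
Sox2 to Atp11b, chr3:34757900-34758199: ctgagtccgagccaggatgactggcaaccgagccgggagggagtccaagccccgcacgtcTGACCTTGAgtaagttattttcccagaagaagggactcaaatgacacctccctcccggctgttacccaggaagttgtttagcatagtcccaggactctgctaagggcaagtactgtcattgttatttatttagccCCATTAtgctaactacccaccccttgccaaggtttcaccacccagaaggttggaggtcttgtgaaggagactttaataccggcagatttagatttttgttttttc
The widest peak of the stretch with the most far peaks, upstream of Med13l, held a Sox motif.
2410131K14Rik to Med13l, chr5:118435029-118435328: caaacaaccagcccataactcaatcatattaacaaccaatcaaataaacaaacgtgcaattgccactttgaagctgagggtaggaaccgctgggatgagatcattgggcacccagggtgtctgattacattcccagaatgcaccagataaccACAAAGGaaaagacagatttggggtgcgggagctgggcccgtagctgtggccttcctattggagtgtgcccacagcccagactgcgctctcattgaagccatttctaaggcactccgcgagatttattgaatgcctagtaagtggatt
The last pair stand for 2 groups of far peaks that share sequence, called sequence groups 1 and 2 here. Each is the peak of at most 300 bases with the most similar far peaks in its group, a choice made after the values were seen. The first was similar to 90 other far peaks and carried an Esrrb motif, and the second was similar to 67 and carried a Sox motif. Within the groups, the Esrrb motif was in only 3 of the 159 peaks of group 1. The Sox motif was in 78 of the 107 peaks of group 2.
Sequence group 1, chr14:113457928-113458162: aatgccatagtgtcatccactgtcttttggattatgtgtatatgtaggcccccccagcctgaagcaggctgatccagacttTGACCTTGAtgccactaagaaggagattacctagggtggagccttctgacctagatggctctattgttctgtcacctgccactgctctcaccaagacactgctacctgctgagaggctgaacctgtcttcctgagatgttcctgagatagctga
Sequence group 2, chr3:18828857-18829124: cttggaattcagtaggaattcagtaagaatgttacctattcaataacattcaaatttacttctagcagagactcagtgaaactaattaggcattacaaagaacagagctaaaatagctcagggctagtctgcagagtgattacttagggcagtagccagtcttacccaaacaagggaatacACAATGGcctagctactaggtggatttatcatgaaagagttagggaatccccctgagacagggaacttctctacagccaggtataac

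Far peaks were sparse for the length of sequence open to them. Sequence that met the same distance rule made up 739.2 Mb, or 28.9% of the known bases, and held 1.65 far peaks per Mb. The remaining sequence held 4.13 peaks per Mb, so that the ratio was 0.399 (0.376 to 0.424). Density fell with distance on both sides of the 100 kb limit. Intergenic peaks over 5 kb from any TSS numbered 4.94 per Mb (4.64 to 5.25) at 5 to 25 kb from a protein-coding TSS and 2.97 per Mb (2.72 to 3.23) at 50 to 100 kb. Among far peaks, 524 lay at 100 to 200 kb (2.54 per Mb, 2.33 to 2.77) and 457 at 200 to 500 kb (1.58 per Mb, 1.44 to 1.73). Another 166 lay at 500 to 1000 kb (1.00 per Mb, 0.856 to 1.17) and 72 beyond 1000 kb (0.930 per Mb, 0.728 to 1.17). The fall thus slowed at the largest distances, where the last pair of intervals overlap. The median distance was 234.1 kb, with quartiles of 148.7 and 435.1 kb.

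**Figure D1:**
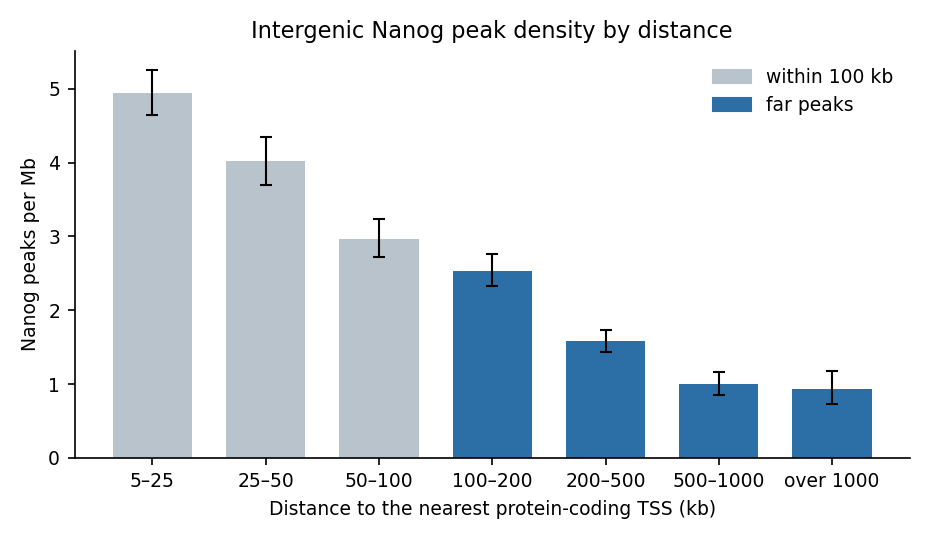
Intergenic Nanog peaks per Mb of intergenic sequence (y axis) by distance to the nearest protein-coding TSS in kb (x axis), with bars for far peaks in blue, nearer intergenic peaks in grey, and 95% counting intervals. The density is 4.94 per Mb in the nearest class and 0.930 per Mb in the farthest.

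Chromosomes differed in how densely their far sequence was bound. Chromosome 13 had the highest density, with 2.71 far peaks per Mb of far sequence, and 95 of its 426 peaks were far (22.3%). Chromosome 14 followed with 2.20 per Mb. The X chromosome had the lowest density, 0.367 per Mb from 20 far peaks, and its remaining sequence was also the least dense, at 1.10 peaks per Mb. The share of peaks that were far was 14.3% on X, close to the share over all chromosomes, so X was low on both sides of the rule.

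Far peaks were spread over many deserts. Of 2005 deserts with any far sequence, 642 held at least 1 far peak (32.0%). A single far peak was found in 350 of them, 2 in 149, and 3 or more in 143. The 37 deserts with 5 or more held 216 far peaks. Deserts that held a far peak were longer, with a median of 626.8 kb against 250.9 kb for those that held none. The other 5 far peaks lay beyond the outermost protein-coding gene of their chromosome, where no desert is defined.

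The desert between Plekhb2, an endosomal membrane protein, and Hs6st1, a heparan sulfate sulfotransferase, held the most far peaks, 10 in 1189 kb. They lay 137.1 to 586.0 kb from the nearest protein-coding TSS, 6 of them nearer to Plekhb2 and 4 nearer to Hs6st1. Sox motifs were found in 5 of the 10 and the Oct4-Sox2 composite in 1, against 33.1% and 4.59% of all far peaks. The chromosome 1 peak at chr1:35115233-35116181 was 949 bp wide, the second widest far peak. None of the 10 was centred in a soft-masked repeat, sequence that the reference marks as repetitive, against 27.7% of all far peaks.

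Deserts beside cell adhesion genes were among the longest that held many far peaks. The 4542 kb desert between the protocadherins Pcdh20 and Pcdh9 held 9, and so did the desert between N-cadherin (Cdh2) and the desmosomal cadherin Dsc3. The Cdh6 to Cdh9 and Got2 to Cdh8 deserts, also beside cadherins, held 6 each. The 4 far peaks farthest from any protein-coding TSS all lay between Pcdh20 and Pcdh9, at 2173 to 2412 kb from the TSS of Pcdh9. The fifth lay 1972 kb from Celf4, an RNA-binding protein, in a desert with 8 far peaks. Per Mb of far sequence, Pcdh20 to Pcdh9 held 2.13 far peaks, against 10.7 between Plekhb2 and Hs6st1.

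Far peaks of these long deserts belonged to the 2 sequence groups in differing shares, against 266 of 1219 far peaks (21.8%) in all. Between Cdh2 and Dsc3 it was 7 of 9, between Pcdh20 and Pcdh9 it was 5 of 9, between Cdh6 and Cdh9 it was 3 of 6, and between Got2 and Cdh8 it was 1 of 6. Among the 9 far peaks between Adamts9, a secreted protease, and Magi1, a junction scaffold, only 1 was in a group. Between Nmbr and Cited2, a transcriptional coactivator, a Nanog core motif was in 5 of 8 far peaks, against 19.2% of all far peaks. Of the 8, 3 were in a group. The 4 nearest to Cited2 lay 571.2, 492.9, 143.5 and 100.2 kb upstream of it.

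**Figure D2:**
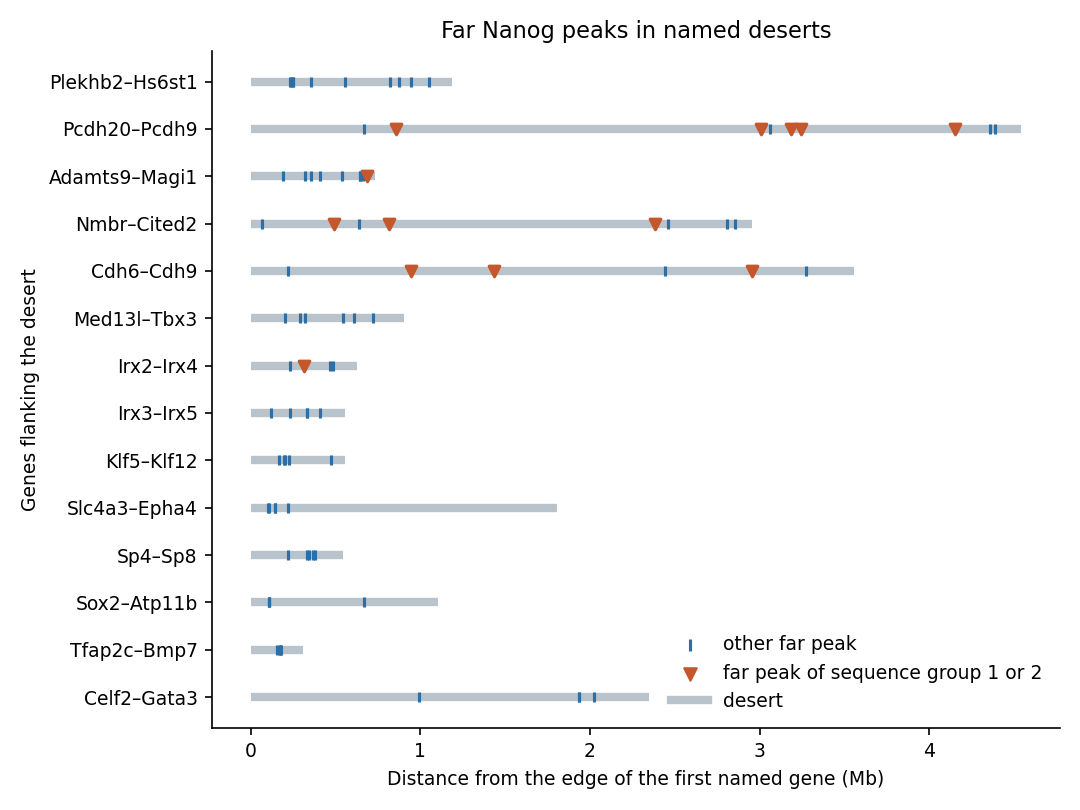
Far Nanog peaks along 14 named deserts, each drawn as a grey bar from the edge of the first gene of its name (x axis, Mb). Blue ticks are far peaks outside sequence groups 1 and 2 and orange triangles are members of these groups, which make up 5 of the 9 far peaks between Pcdh20 and Pcdh9 and none of the 10 between Plekhb2 and Hs6st1.

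The next comparison asked whether deserts beside developmental regulators held far peaks more often. Developmental regulators were transcription factors and signalling genes of development and a list of pluripotency genes, all chosen by name. Of 349 deserts with such a gene at a flank, 148 held a far peak (42.4%, 37.2 to 47.8%), against 494 of 1656 others (29.8%), a ratio of 1.42 (1.23 to 1.64). These deserts were also longer, with a median of 397.4 kb against 308.3 kb. Per Mb of far sequence they held 1.86 far peaks against 1.60, a ratio of 1.17 (1.02 to 1.34). On autosomes alone the ratio per Mb was 1.10 (0.953 to 1.26), with an interval that includes 1. Among deserts of at least 500 kb the ratio of shares was 1.13 (0.983 to 1.30).

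Families at the flanks differed from each other. Beside developmental transcription factors, 43.8% of deserts held a far peak, at 2.07 far peaks per Mb (ratio 1.30, 1.11 to 1.52). Beside developmental signalling genes the ratio per Mb was 0.855 (0.665 to 1.08), an interval that includes 1. Beside genes of adhesion, synapses and ion channels, 42.4% of deserts held one, yet at 1.22 far peaks per Mb, fewer than elsewhere (ratio 0.691, 0.591 to 0.804). The order of this family thus turned with the measure, above other deserts per desert and below them per Mb. Its deserts had a median length of 534.4 kb, against 303.7 kb for others, and the part of length in this turn was not tested. Beside chemosensory receptors, 5 of 33 deserts held a far peak (15.2%), against 32.3% of others, and the interval of the ratio includes 1 (0.469, 0.209 to 1.05).

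**Figure D3:**
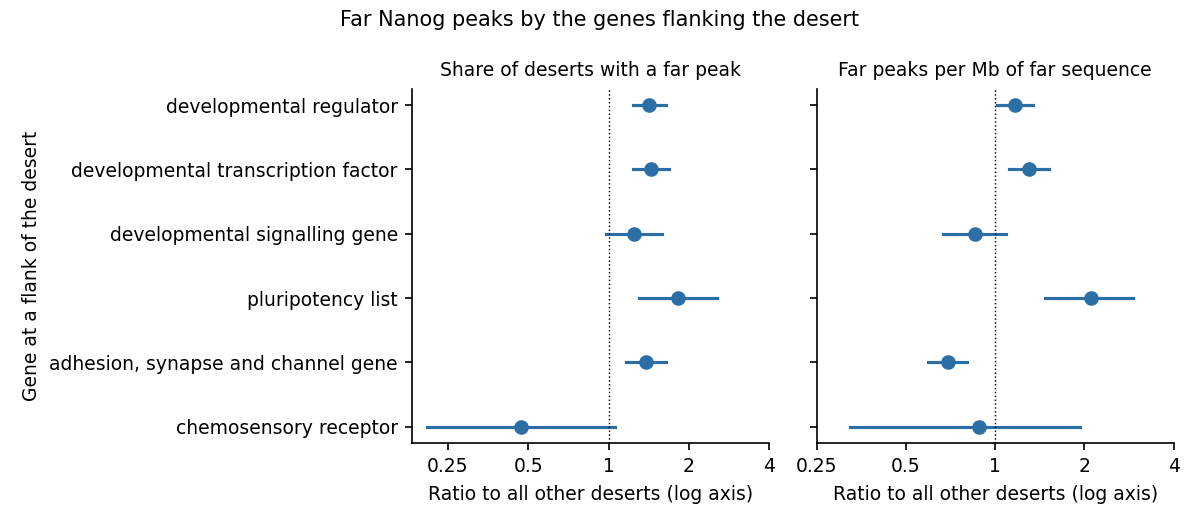
Ratio of deserts with a gene of each family at a flank to all other deserts (x axis, log scale), for the share that held a far peak (left) and for far peaks per Mb (right), with 95% counting intervals. Adhesion, synapse and channel genes lie above 1 on the left (1.38) and below 1 on the right (0.691).

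Within a desert, far peaks were split evenly between the sides of the developmental and the other gene. In 330 deserts with a developmental regulator at 1 flank only, 120 of 239 far peaks lay on the side of that gene (50.2%, 43.7 to 56.7%), where 50.1% of the far sequence lay. The nearest protein-coding TSS belonged to a developmental regulator for 139 far peaks (11.4%), against 9.86% of far sequence. That ratio was 1.18 (0.979 to 1.40), an interval that includes 1.

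Some deserts lay between pairs of developmental regulators. Both flanks carried one in 19 deserts, of which 11 held 29 far peaks in all, where 642 of all 2005 deserts held any (32.0%). Iroquois homeobox genes, which pattern the heart and nervous system, bounded a pair of them. Between Irx3 and Irx5 lay 5 far peaks, at 120.2, 229.9, 224.5, 223.3 and 148.2 kb from the nearer TSS, and between Irx2 and Irx4 lay another 5, at 139.2 to 312.8 kb. The Krüppel-like factors Klf5, which supports ESC self-renewal, and Klf12 bounded a desert with 5 far peaks, all nearer to the TSS of Klf5 than to that of Klf12, although 1 lay 84.0 kb from the edge of Klf12. These lay 182.2, 211.6, 215.5, 238.8 and 487.9 kb downstream of the Klf5 TSS. In a desert with 1 developmental regulator of the list, Sp4 and Sp8, zinc finger factors, bounded 5 far peaks, of which 4 were nearer to Sp8, a factor of limb and brain outgrowth, at 168.2 to 212.9 kb upstream of it.

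Motifs in these clusters varied from peak to peak. Between Irx3 and Irx5, the far peak 148.2 kb upstream of Irx5 held Esrrb, Sox and Tead motifs, and that at 223.3 kb held an octamer and a Sox motif. The peak 229.9 kb upstream of Irx3 held Klf and Nanog core motifs and lay inside the noncoding gene Gm28516. In contrast, none of the 5 far peaks downstream of Klf5 held an Oct, Sox, Nanog or Klf motif, and the Tead motif was found in 2 of them. Of the far peaks upstream of Sp8, 1 held a Sox motif. Over all far peaks, Sox motifs were in 33.1% and Tead motifs in 28.0%.

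Other developmental genes had a desert with several far peaks on 1 side. Tbx3, a T-box factor of the naive pluripotency network, had 6 far peaks between it and Med13l, of which 3 were nearer to Tbx3 at 360.3, 295.6 and 184.3 kb upstream of it. The desert of Epha4, an ephrin receptor, held 5, but all lay 116.9 to 235.3 kb from Slc4a3 at the opposite flank of 1805 kb. Efnb2, an ephrin ligand, and the Notch target Hes1 each bounded 5 as well. Tfap2c, an AP-2 factor of germ cells and trophoblast, and Bmp7, a morphogen, bounded 4 far peaks, which lay 161.2, 178.8, 184.0 and 189.6 kb downstream of Tfap2c. The first of these held the composite with a Nanog core motif, and the next held Klf and Sox motifs. Gata3, a factor of trophoblast and T cells, bounded a desert of 2348 kb with 4, none of them nearest to Gata3 itself.

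Further deserts with 4 far peaks and a developmental regulator at a flank were those of Prdm2, Myt1l, Foxo1, Sall3 and Eya1. Eya1, a coactivator of eye and kidney formation, and Msc, a muscle factor, bounded 443.1 kb in which far peaks lay 105.4 to 142.4 kb from the nearest protein-coding TSS. Foxo1, a forkhead factor of insulin signalling, was the nearest flanking gene to 3 of the 4 far peaks in its desert. Those with 3 far peaks included the 3591 kb desert of the ephrin ligand Efna5, where the peaks lay 769.5 to 1915 kb from the Efna5 TSS. The shortest was the 227.8 kb desert of the homeobox gene Evx1, with 3 far peaks at 104.9 to 158.7 kb. In all, 31 deserts with a developmental regulator at a flank held at least 3 far peaks.

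Of the deserts with a gene of the pluripotency list at a flank, 15 of 26 held a far peak (57.7%, 36.9 to 76.6%), against 31.7% of the 1979 others (ratio 1.82, 1.30 to 2.55). These deserts were also longer, with a median of 537.0 kb against 316.7 kb. They held 37 far peaks at 3.41 per Mb, against 1.62 per Mb in other deserts (ratio 2.11, 1.48 to 2.92). Nr5a2, a nuclear receptor that can activate Oct4, had 5 far peaks on the side of Ptprc and 1 on the side of Zfp281. Of the 5, 4 were nearer to Nr5a2, at 214.1, 427.3, 430.0 and 458.1 kb upstream. Jarid2, a Polycomb component, had 4 on the side of Cd83, with 3 of them nearer to Cd83. Sall1, a zinc finger factor, had 3 on the side of Tox3 and 2 on the side of Cyld, none of them nearest to Sall1 itself. Mycn, Otx2, Id2 and Ehf bounded deserts with 1 far peak each, on both sides in the case of Mycn. The nearest protein-coding TSS was of Rnf144a in the Id2 desert, of Apip in the Ehf desert and of Fam49a in the Fam49a to Mycn desert. The 11 deserts that held none included those beside Klf4, Esrrb, Zfp42, Tfcp2l1, Foxd3, Tet2 and Dppa4.

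Downstream of Sox2, a core pluripotency factor, 3 far peaks stood close together at 106.5, 107.6 and 111.0 kb from its TSS, in the region known as the Sox2 control region. They spanned 4.94 kb (chr3:34756681-34761615) and were 529, 389 and 457 bp wide. The remaining far peak of the same desert lay 436.5 kb upstream of Atp11b, and the desert on the other side of Sox2 held 1, inside the noncoding Sox2ot transcript.

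Long deserts beside developmental genes could also be empty. The longest desert with no far peak was that between Zeb2, a zinc finger factor, and Acvr2a, an activin receptor, at 3697 kb. Those of Brinp3 and Pla2g4a (2927 kb), Alcam and Zpld1 (2771 kb), Nr2f1 and Arrdc3 (2684 kb), and Ptprd and Tyrp1 (2622 kb) followed. Both the Zeb2 and the Nr2f1 desert held 1 Nanog peak that did not meet the distance rule, and the other 3 held no Nanog peak at all.

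The distance rule left noncoding genes as the nearest annotation of most far peaks. The nearest TSS of any annotated gene was at a median of 41.8 kb, and it belonged to a processed pseudogene for 442 far peaks, to a long intergenic noncoding RNA (lincRNA) for 387 and to a protein-coding gene for 45. The middle base lay inside a noncoding gene for 155 far peaks (12.7%, 10.9 to 14.7%), against 10.0% of nearer intergenic peaks, and in 127 cases that gene was a lincRNA. The 155 were spread over 142 genes. The transcript 6330411D24Rik between Kazn and Prdm2 held 3, and every other one held 1 or 2, such as 9530026P05Rik beside Adamts9 with 2.

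Far peaks stood alone more often than nearer intergenic peaks did. Another Nanog peak lay within 12500 bp of 225 far peaks (18.5%, 16.3 to 20.8%), against 27.4% of the 2142 nearer intergenic peaks (25.5 to 29.3%), a ratio of 0.674 (0.588 to 0.772). Far sequence also held fewer peaks per Mb, 1.65 against 2.97 to 4.94 in the classes of nearer intergenic sequence. The neighbour share was not adjusted for this density, and its part in the ratio was not tested. Chaining far peaks at 12500 bp gave 100 stretches of 2 or more, with 212 far peaks, and 9 stretches of 3 or more. The one with the most far peaks held 5 in 12.2 kb (chr5:118434802-118447040). They lay 113.8, 115.2, 115.9, 124.1 and 125.5 kb upstream of Med13l, a subunit of the Mediator kinase module. Their widths ran from 256 to 755 bp. A stretch of 4 lay between Plekhb2 and Hs6st1 (chr1:35108782-35128274). Those of 3 included the Sox2 stretch and another downstream of Tfap2c, 178.8 to 189.6 kb away.

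Sequence was shared among far peaks on different chromosomes. By alignment, 330 far peaks (27.1%) matched another far peak over at least 100 bases at 80% identity or more. Of windows of the same width 1 kb to the side, 1 for each far peak, 176 of 1219 (14.4%) matched another such window, a ratio of 1.88 (1.59 to 2.21). The matches joined the far peaks into 17 groups. Group 1 had 159 far peaks on 20 chromosomes and group 2 had 107 on 19, and the next in size had 9. The windows to the side also formed a large group, of 111 among the 176 that matched. Against all 8735 peaks, 30.1% of far peaks matched another peak (27.5 to 32.8%), compared with 26.2% of nearer intergenic peaks (24.3 to 28.1%), a ratio of 1.15 (1.03 to 1.28).

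Both groups differed from the remaining far peaks. Their middle base was soft-masked in 205 of 266 members, against 133 of 953 other far peaks. A developmental regulator was at a flank of the desert for 24 of the 266 (9.02%, 5.87 to 13.1%), against 25.6% of the others (22.9 to 28.5%), a ratio of 0.352 (0.237 to 0.524). Another peak lay within 12500 bp for 11.3% of them, against 20.5% (ratio 0.551, 0.385 to 0.790). They lay deeper in deserts, at a median of 336.9 kb against 211.6 kb. A Sox motif was in 72.9% of group 2 (63.4 to 81.0%) and in 12.6% of group 1, against 32.0% of the others. Neither group held any Oct4-Sox2 composite. Members of a group were joined by shared sequence, so their motifs and soft-masking are not independent, which the interval does not allow for. Without the 266, deserts beside developmental regulators held 1.70 far peaks per Mb and other deserts 1.19, so that the ratio rose to 1.42 (1.22 to 1.65). This rise follows from the lower share of the groups at such flanks and adds nothing beyond it. The groups were found in these data after the values were seen. How reads that align to several places were treated is not given in the sources used here, and its part in these values was not tested.

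**Figure D4:**
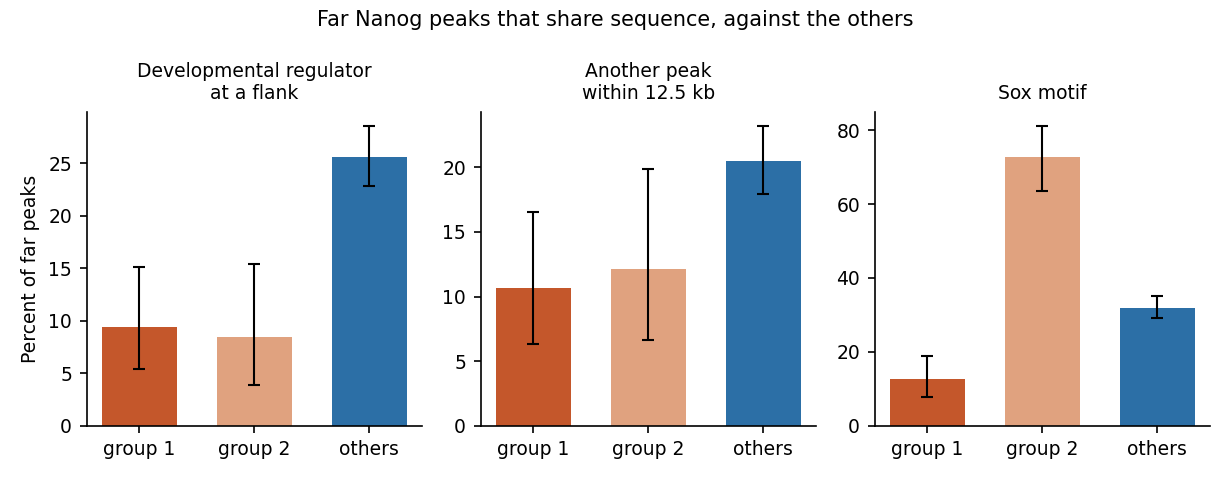
Percent of far peaks (y axis) in sequence group 1 (159 peaks), sequence group 2 (107) and neither (953) that had a developmental regulator at a flank, another Nanog peak within 12500 bp, or a Sox motif, with 95% counting intervals. Both groups lie below the others in the first panel, and group 2 stands above them for the Sox motif. Members of a group share sequence by construction, which the Sox intervals do not allow for.

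Motifs of pluripotency factors were more frequent in far peaks than beside them. Each motif was searched on both strands without mismatch, the composite apart, in the peaks and in 2406 windows of the same width 1 kb beyond each edge. The Oct4-Sox2 composite was in 4.59% of far peaks against 0.582% of windows, a ratio of 7.89 (4.41 to 14.1). The size of this ratio varied with the search, from 3.27 (2.70 to 3.96) with up to 3 mismatches to 26.9 (3.66 to 198) where the windows had a GC content like that of the peak. The Sox motif (CCATTGT or CCTTTGT) was in 33.1% against 12.9% (ratio 2.57, 2.25 to 2.93). The Oct octamer (ATGCAAAT), which the composite contains, was in 7.38% against 2.91% (ratio 2.54, 1.87 to 3.44). The Klf motif (GCCACACCC, GCCACGCCC, GCCCCACCC or GCCCCGCCC) was in 5.09% against 1.16% (ratio 4.37, 2.81 to 6.79). For Nanog, the core CCATTA was in 19.2% against 13.8% (ratio 1.39, 1.19 to 1.62), and the extended form GCCATTAA, which includes the core, was in 2.95% against 0.748% (ratio 3.95, 2.25 to 6.92).

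The Tead motif (GGAATG), of the Hippo pathway, was in 28.0% of far peaks against 19.4% of windows (ratio 1.44, 1.28 to 1.63). For Esrrb (TCAAGGTCA), Stat (TTCCNGGAA), AP-1 (TGACTCA or TGAGTCA), the Myc E-box (CACGTG) and CTCF, the intervals of the ratio include 1. CTCF, an insulator factor, had a match in 2 far peaks. None of the searched motifs was found in 365 far peaks (29.9%). Sox and Nanog core motifs stood together in 73 far peaks, and 11 held Oct, Sox and Nanog core motifs. Sox motifs and the composite were denser at the centre of far peaks than beside it. Sox motifs numbered 1.76 per kb within 50 bp of the middle base and 0.453 per kb at 500 to 1000 bp, and the composite 0.195 and 0.0139 per kb. The Myc E-box was sparser at the centre, with 0.0325 and 0.0943 copies per kb.

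**Figure D5:**
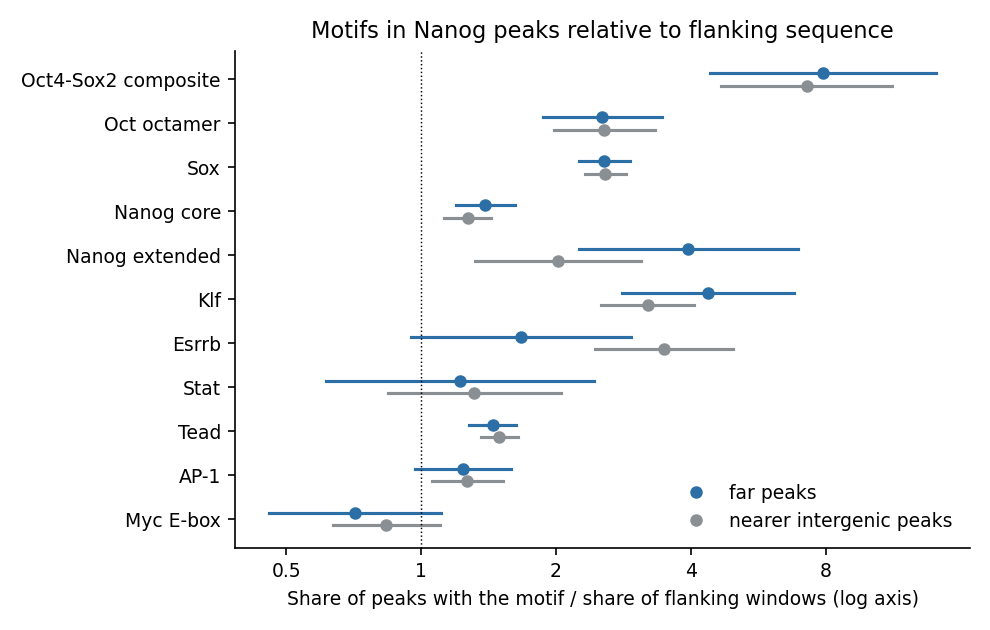
Share of peaks with a motif divided by the share of flanking windows with it (x axis, log scale), with 95% counting intervals, for far peaks (blue) and nearer intergenic peaks (grey). The composite stands highest in both classes (7.89 in far peaks), and Esrrb is lower in far peaks (1.67) than in nearer ones (3.48), with overlapping intervals.

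Compared directly with nearer intergenic peaks, far peaks held fewer Klf and Esrrb motifs. Klf was in 5.09% of far peaks against 7.89% of nearer ones (ratio 0.645, 0.486 to 0.855), and Esrrb, an orphan nuclear receptor of naive ESCs, in 1.80% against 3.87% (ratio 0.466, 0.293 to 0.741). Sox motifs were slightly more frequent in far peaks, 33.1% against 29.5% (ratio 1.12, 1.01 to 1.24). Leaving out peaks that shared sequence with any other peak, this Sox ratio was 1.07 (0.949 to 1.21), the Klf ratio 0.615 (0.453 to 0.834) and the Esrrb ratio 0.335 (0.177 to 0.632). For the composite the interval includes 1 (ratio 1.07, 0.773 to 1.48). For the octamer the ratio was 1.26 (0.967 to 1.63) over all peaks and 1.47 (1.11 to 1.93) without peaks of shared sequence, where the interval excludes 1. With peaks of shared sequence kept, intervals against nearer intergenic peaks also include 1 for the Nanog, Stat, Tead, AP-1, Myc and CTCF motifs. Against all Nanog peaks that were not far, the interval excludes 1 for the Myc E-box (ratio 0.466, 0.314 to 0.691) and the extended Nanog motif (1.47, 1.03 to 2.10). The same held for Tead (1.12, 1.01 to 1.23) and the octamer (1.35, 1.09 to 1.69), but not for the composite, Nanog core, Stat, AP-1 or CTCF.

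Far peaks were also poorer in G and C. Their median GC content was 45.7%, against 47.7% in nearer intergenic peaks, but their flanking windows were lower still, at 41.6% against 44.6%. Whether GC content had a part in the motif shares between the classes was not tested. The middle base was soft-masked in 27.7% of far peaks (25.2 to 30.3%), against 24.6% of nearer ones, a ratio of 1.13 (1.00 to 1.27), and in 31.4% of the windows beside far peaks. Width barely differed, with a median of 321 bp (quartiles 261 and 391) against 323 bp, and 126 far peaks (10.3%) had the smallest width in the list, 235 bp.

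The widest far peak, of 965 bp (chr11:111843652-111844616), was the only one in the desert between Kcnj2, a potassium channel, and Sox9, a factor of cartilage and gonad, and lay 778.0 kb from the Kcnj2 TSS. It held Sox and Tead motifs. The next were the peak of 949 bp beside Plekhb2, one of 810 bp between Cd83 and Jarid2 with Sox, Klf, Stat, Tead and Nanog core motifs, one of 789 bp between Rybp, a Polycomb component, and Shq1, and one of 776 bp between Myc, a growth regulator, and Gsdmc, 849.8 kb from Gsdmc. Just beyond the 100 kb limit, and so counted as far, were peaks at 100003 bp from Dpp6, 100112 bp from Rab3gap2 and 100236 bp from Cited2. Just short of it, and so not counted, were peaks at 99883 bp from Tacr1, 99683 bp from Sec61g and 99176 bp from Cops8.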

How the data were processed

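Nanog ChIP-seq was measured in 1 sample of Bruce-4 ESCs, beside 1 input, which was not analysed here. Per the labels and the study's methods, the authors checked reads with FastQC, aligned them with Bowtie2 to mm10, removed low-quality, duplicate, mitochondrial and blacklisted reads with bedtools and SAMtools, and called peaks with MACS2. The threshold and the use of the input as control are not given in the sources used here. The deposited list holds positions in base pairs only, 8860 lines with 8737 distinct intervals, and 2 of these on unplaced scaffolds were left out.

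Far peaks were found with GENCODE vM21 and GRCm38 sequence. Nearer intergenic peaks lay outside protein-coding genes, over 5 kb from any TSS and at most 100 kb from a protein-coding TSS. Shares carry exact 95% Clopper-Pearson intervals, ratios of shares an interval on the log scale, and ratios of densities an exact conditional one. Similarity was searched with blastn 2.17.0, and statistics used scipy 1.17.1. Similar sequences were grouped with networkx 3.6.1 and figures drawn with matplotlib 3.10.9. Alternatives covered the distance limits, the set of deserts, the neighbour distance and the motif windows, and those on sequence groups, autosomes and chemosensory flanks were added after seeing the data. Scripts were tested on simulated data. The members and gene lists were chosen with earlier results of these data known. Named were the 10 deserts with most far peaks and those with a pluripotency gene at a flank. The 5 farthest and 5 widest far peaks and the stretches with most far peaks were also named. So were peaks with the composite and those beside the 100 kb limit. Deserts beside developmental regulators, empty deserts and the sequence groups were named after their values were seen. Some items of these lists are not reported here.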

Additional observations from a re-analysis of the deposited data

How the results depend on the processing

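Of 86 alternatives, 76 left unchanged whether an interval excludes 1, or stayed within 1.5 times a count or within the spread of a difference. In 4 of them a ratio whose interval includes 1 crossed to the other side of 1: Esrrb against windows was 0.624 with windows matched on GC content, Stat against windows was 0.760 in the middle 200 bp and 0.928 in wider far peaks, and Tead against nearer peaks was 0.952 without peaks of shared sequence. The difference in median width was -2 bp against nearer intergenic peaks and 2 bp against all other peaks. The number of far peaks was 1744 with a limit of 50 kb and 695 with 200 kb, and lay between 1117 and 1371 under the others. The density ratio stayed between 0.329 and 0.448. Counting deserts of at least 500 kb only, 391 held a far peak. The share of deserts beside developmental regulators lost its distance from 1 among deserts of at least 500 kb (ratio 1.13). It did so too with the nearest protein-coding TSS in place of the flanks (1.18). The ratio was 1.60 without sequence groups 1 and 2, an alternative chosen after seeing the data. It left out peaks that were less often beside such genes. Against windows matched on GC content, the ratio of the composite was 26.9 (3.66 to 198), that of the octamer 4.27 and that of the extended Nanog motif 11.2. With up to 3 mismatches that of the composite was 3.27. The composite with at most 1 mismatch was in 16 far peaks and in 0 of 2406 windows, at least 10.5-fold more if 3 windows are taken as the limit for a count of 0. With 85% identity over 150 bases, 21.4% of far peaks matched another. No paired analysis was possible because no values of the input were analysed here. Weak sites below the threshold of the peak call cannot be seen, and without a replicate the spread of any value is unknown.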
